A study of Homo sapiens with 6 samples.

Results

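Some plasma proteins that the liver secretes are encoded by genes that are among the most strongly transcribed of hepatocytes. Their RNAs, and those of the liver carcinoma markers described here, are nuclear-encoded and translated at the endoplasmic reticulum. The 10 genes described here are albumin (ALB), alpha-fetoprotein (AFP), glypican-3 (GPC3), transferrin (TF), the protease inhibitor antitrypsin (SERPINA1), the 3 fibrinogen chains (FGA, FGB and FGG), transthyretin (TTR) and fetuin-A (AHSG). They were chosen by name and matched through their Ensembl identifiers, and all 10 were found among the 57500 genes of the tables. The RNA came from mitochondria isolated from HepG2, a human hepatocellular carcinoma line labelled wild type, and none of the 10 genes is encoded by mitochondrial DNA. It was extracted with TRIzol, and all 6 libraries carry the same batch label. Cells received the solvent DMSO alone as the control, or GenX at 10 or 100 µM, for 48 h, and each group had 2 libraries, 6 in all. GenX is a trade name for a perfluorinated ether carboxylic acid used in making fluoropolymers. Nothing in the labels ties the 2 libraries of a group to different cultures, and the p-values therefore rest on a spread between samples that may be purely technical.

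Most of these genes encode proteins that the liver supplies to the blood. ALB and AFP are homologous carriers, AFP being made mainly by the fetal liver and again by many liver carcinomas. GPC3 is a heparan sulfate proteoglycan anchored to the cell surface that is silent in most adult livers and common in hepatocellular carcinoma. The fibrinogen chains assemble into 1 clotting protein, and their genes lie side by side and are usually transcribed together. HepG2 is widely used because it keeps making many plasma proteins.

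Of the 10 genes, 5 lay on chromosome 4 in a pair of clusters (GRCh38 coordinates of the deposited tables). ALB spanned 73397114 to 73421412 and AFP 73431138 to 73456174, both on the plus strand. FGB spanned 154562956 to 154571086 on the plus strand, FGA 154583126 to 154590766 and FGG 154604134 to 154612967 on the minus strand. TF (133745956 to 133779006) and AHSG (186612923 to 186621318) lay on the plus strand of chromosome 3. GPC3 lay on the minus strand of chromosome X (133535745 to 133985895), SERPINA1 on the minus strand of chromosome 14 (94376747 to 94390693) and TTR on the plus strand of chromosome 18 (31591726 to 31599021). Gene lengths summed over exons, as the tables list them, were used for levels per kilobase, and the rule for overlapping or multiply mapped reads was not given in the sources used here. Reads shared between SERPINA1 and its neighbouring copy SERPINA2 are therefore uncertain.

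The CCAAT box (letters CCAAT, or ATTGG where it lies on the other strand) is a common element of promoters. RefSeq promoters were at hand for 8 of the 10 genes, and 5 of them held it on either strand within 250 bases before the start, against 33.0% of all 27305 promoters of that length. This motif was chosen after earlier results were known. Sequences are printed for AFP and FGA, which were at 0 in both controls, and for ALB, the homologue of AFP, which was counted there. Each is the stretch within 150 bases before the RefSeq start (GRCh38.p14) that overlaps no annotated exon, 5′ to 3′ on the gene's strand, with the CCAAT box in capitals. The RefSeq starts of ALB and AFP lie inside the gene spans of the tables.
ALB (chr4:73404137-73404238, plus strand): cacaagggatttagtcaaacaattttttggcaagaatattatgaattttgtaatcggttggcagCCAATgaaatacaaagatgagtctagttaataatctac
AFP (chr4:73436071-73436162, plus strand): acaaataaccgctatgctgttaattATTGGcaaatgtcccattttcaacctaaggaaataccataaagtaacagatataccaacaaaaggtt
FGA (chr4:154590767-154590892, minus strand): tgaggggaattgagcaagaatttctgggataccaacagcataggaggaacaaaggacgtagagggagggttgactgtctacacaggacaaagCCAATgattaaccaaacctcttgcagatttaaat
The printed box began 86 bases before the start in ALB, 125 in AFP and 58 in FGA. ALB held another 44 bases before its start, outside the printed stretch. FGB, also at 0 in both controls, is not printed, and its box lay 196 bases before its start, beyond the 150 bases. FGG held the box 17 bases before its own start. The box was not among the letters of the windows of TF, SERPINA1 and AHSG. A match is a string of letters and not a measured binding site.

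Depth differed strongly between the groups. Library totals ran from 29350 to 2141282 counts, and genes outside the mitochondrial chromosome, called nuclear genes, held 230210 and 54502 counts in control cells, 24505 and 11406 under 10 µM, and 2064527 and 1293961 at 100 µM. CPM here is a gene's count scaled to a library of 1000000 counts, and nuclear CPM is the same with nuclear-gene counts alone as the library. Nuclear CPM leaves out the counts on genes of the mitochondrial chromosome. Their share of all counts was 4.35% and 10.4% for the control pair, and 43.7% and 61.1% at 10 µM. At 100 µM it was 3.58% and 3.32%. The nuclear gene with the most counts was MTATP6P1 in both 10 µM libraries (109 and 118 counts). Whether reads of mitochondrial RNA were counted on nuclear genes, and so entered nuclear CPM, was not tested. Where no read was counted, a level of up to 3 counts remains possible, equal to 13.0 and 55.0 nuclear CPM for the control pair, 122 and 263 for the 10 µM pair, and 1.45 and 2.32 for the 100 µM pair. Intervals are exact 95% binomial intervals (Clopper-Pearson) and, like these limits, cover counting error only. The replicates of a group differed by more than counting error over all genes, with a chi-square per degree of freedom of 12.9 (10 µM) to 39.4 (control).

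Together the 10 genes took a small share of the nuclear RNA in every library, and the smallest share at 10 µM. They held 1117 of the nuclear counts in control 1 and 433 in control 2, which was 0.485% (interval 0.457 to 0.514) and 0.794% (0.722 to 0.873). At 10 µM they held 17 and 13 counts, or 0.0694% (0.0404 to 0.111) and 0.114% (0.0607 to 0.195). At 100 µM they held 11290 and 7543 counts, or 0.547% (0.537 to 0.557) and 0.583% (0.570 to 0.596). As group means the shares were 0.640% ± 0.219 (SD, n = 2) under DMSO, 0.0917% ± 0.0315 at 10 µM and 0.565% ± 0.0255 at 100 µM. Both 10 µM libraries lay below the other 4, and the 100 µM libraries lay between the 2 controls. No p is given for this sum, and for a single value an exact two-sided permutation test of 2 against 2 libraries cannot go below p = 0.333.

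Of the 10 genes, 6 had at least 1 count in control 1, 5 in control 2, 6 and 3 in the 10 µM libraries, and 9 and 8 at 100 µM. FGA had 0 counts in every library. All nuclear genes with a count numbered 8191 and 5175, then 4630 and 3065, then 13673 and 11638.

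**Figure D1:**
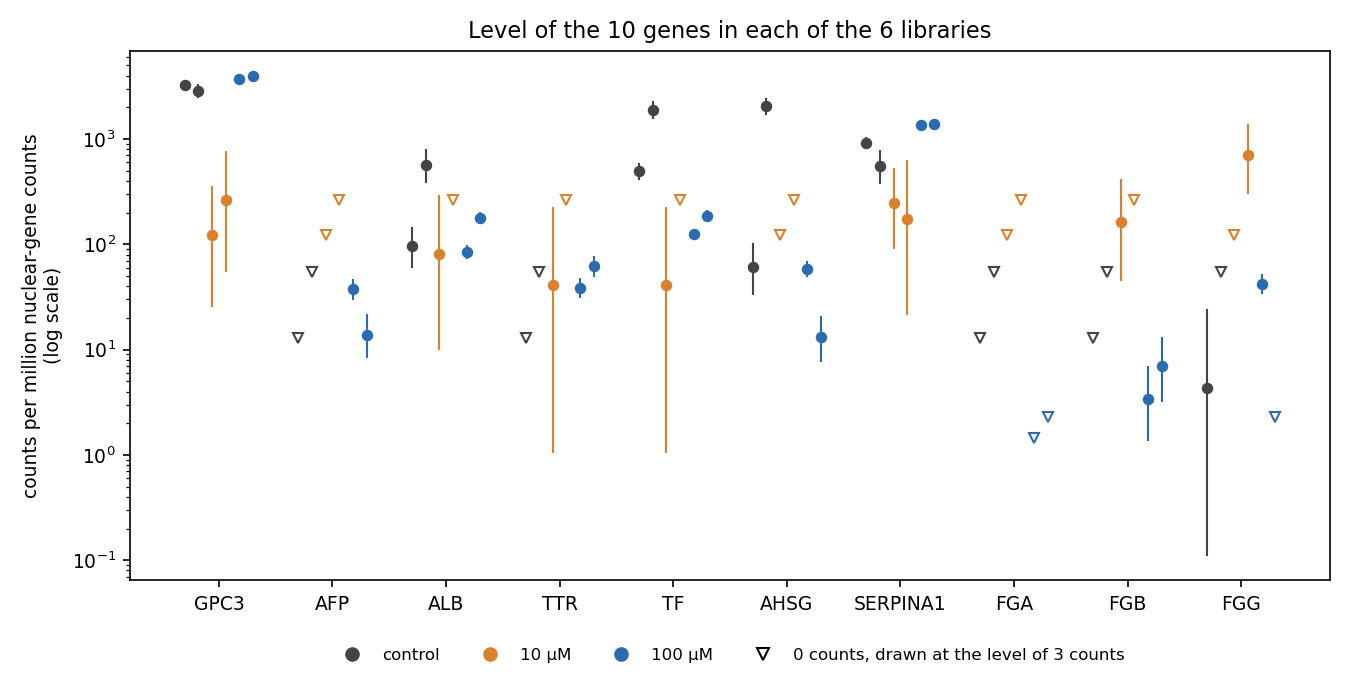
Nuclear CPM (log scale) of the 10 genes in each of the 6 libraries, with exact 95% binomial intervals. Open triangles mark libraries with 0 counts, drawn at the level of 3 counts. GPC3 is the highest of the 10 in both control and both 100 µM libraries, and FGA has a triangle in all 6.

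GPC3, the carcinoma marker, had the highest level per kilobase of the 10 in control and 100 µM cells, and its pooled nuclear level was 19.2-fold lower at 10 µM than in control cells. It had 755 and 156 counts in control cells, 3 and 3 under 10 µM, and 7686 and 5136 at 100 µM. In nuclear CPM this was 3280 and 2862, then 122 and 263, then 3723 and 3969. The 10 µM libraries lay far below the other 4, and on this scale both 100 µM libraries lay above both controls by a narrow margin. Of tested nuclear genes, 32% had both 10 µM libraries below both controls, and 48.3% had both 100 µM libraries above them. On the CPM scale, relative to all counts, the group means were 2850 ± 405 (SD, n = 2), 85.5 ± 23.6 and 3713 ± 175.

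Across the 3180 genes tested with edgeR's quasi-likelihood method, GPC3 fell by 5.37 ± 1.00 log2 units at 10 µM against control (SE; adjusted p = 0.0414). Of all tested genes 0.377% were called lower there and 0.22% higher, 0.597% in all (12 lower and 7 higher, but 7 and 8 when DESeq2 size factors were used and 7 and 0 for library sizes alone). From 10 to 100 µM GPC3 rose by 5.10 ± 0.99 (edgeR adjusted p = 0.0304), where 0.755% of all tested genes were called higher and 2.11% lower, 2.86% in all (24 and 67, but 6 and 73 with DESeq2 size factors). Between 100 µM and control its value was -0.26 ± 0.80 (edgeR adjusted p = 0.877), and the sign turned with library sizes alone (0.39). No gene was called in that comparison, 0% of those tested, beside 573 with an unadjusted p under 0.05 and 244 called by DESeq2's Wald test. All 3 comparisons come from 1 fit, and each pair of them shares a group. The fall at 10 µM did not pass with DESeq2 size factors (-4.84, adjusted p = 0.094), library sizes alone (-4.86, 0.0807), nuclear counts only (-5.43, 0.108), no filter (-5.99, 0.213), DESeq2's test without a filter (-5.13, 0.338), or without any 1 of the 4 GenX libraries (adjusted p from 0.112 to 0.226). The rise did not pass with DESeq2 size factors (4.12, adjusted p = 0.062), nuclear counts only (5.31, 0.0532), no filter (6.37, 0.118), DESeq2's test without a filter (4.52, 0.134), or without 10 µM replicate 1 (5.66, 0.0628), 100 µM replicate 1 (5.73, 0.176) or 100 µM replicate 2 (5.76, 0.173).

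Most abundant nuclear genes were lower at 10 µM as well. Had the 10 µM libraries held the pooled control share of nuclear counts, they would have shown 115 GPC3 counts where 6 were counted, a pooled ratio of control to 10 µM of 19.2 (95% counting interval 8.76 to 52.3), and of 12.2 without 10 µM replicate 1 or 26.1 without replicate 2. Among the 208 nuclear genes with at least 200 pooled control counts, 207 were below the control share at 10 µM, and the median gene kept 0.0342 of it. GPC3 kept 0.0522 of it, and 64.4% of the 208 genes kept as little or less. These 208 genes were picked for high control counts, which itself favours a fall. Over all genes tested the median log2 fold change was -3.18 at 10 µM against control, and it moved to -2.66 with DESeq2 size factors, -2.64 with library sizes alone and -2.70 with nuclear counts only. From 10 to 100 µM it was 3.52, and with the same alternatives 2.54, 3.66 and 3.13. Between 100 µM and control it was 0.35, then -0.05, 1.02 and 0.56. MALAT1, a nuclear-retained long RNA, held 14.1% and 5.15% of nuclear counts under DMSO, 0.0694% and 0.114% under 10 µM, and 2.99% and 2.69% under 100 µM. Pseudogenes held 7.10% and 6.80% under 10 µM, 0.614% and 1.34% under DMSO, and 1.07% and 1.03% under 100 µM. The part of these shifts in the GPC3 result was not tested. These levels are shares of libraries made from isolated mitochondria, so cell number and RNA per cell cannot be read from them. How much nuclear RNA each preparation carried was not tested.

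**Figure D2:**
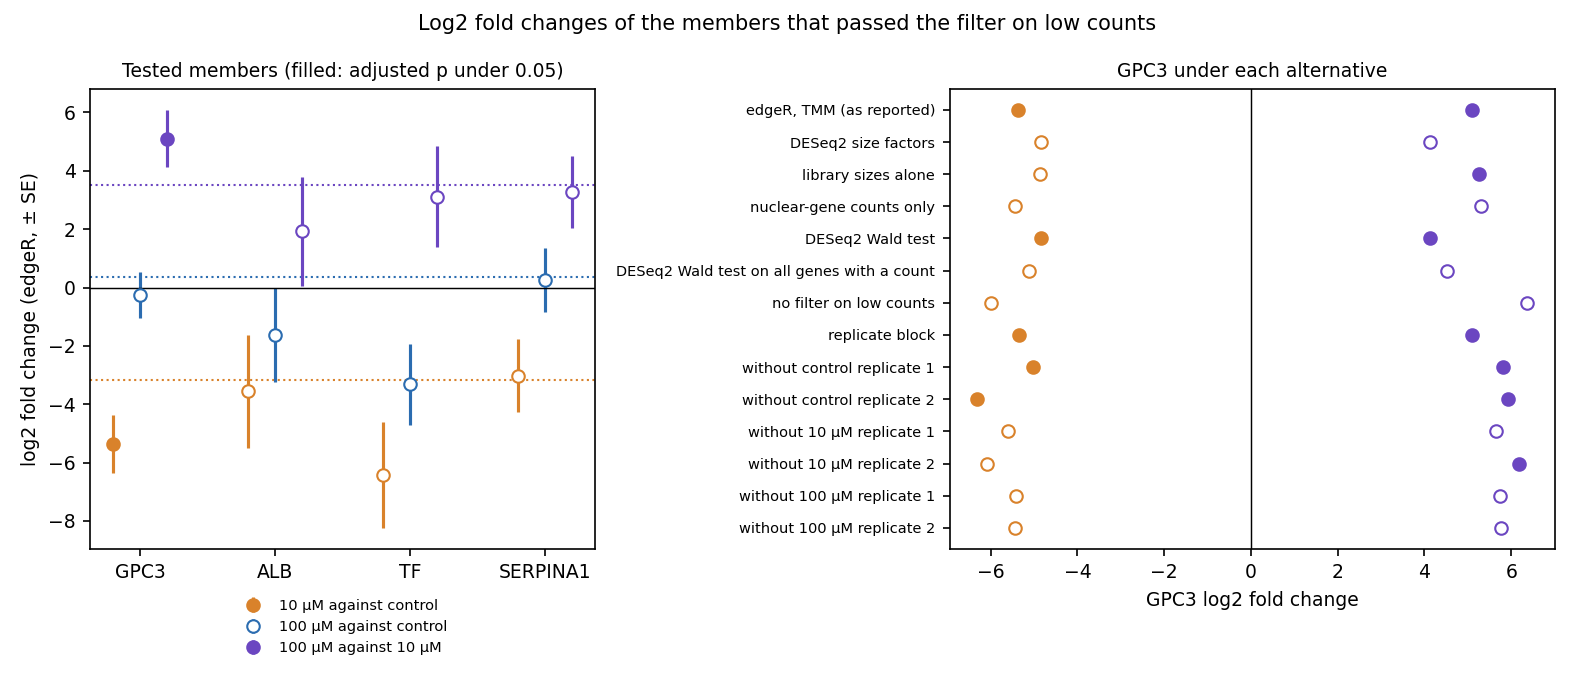
Left, edgeR log2 fold changes with their SE for the 4 genes that passed the filter on low counts, in 3 comparisons, filled where the adjusted p was under 0.05, with the median of all tested genes as a dotted line. Right, the GPC3 value at 10 µM against control (orange) and at 100 against 10 µM (purple) under each alternative, filled where it passed; all values keep their sign, and whether they pass differs between settings.

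SERPINA1, the main inhibitor of neutrophil elastase in blood, came next after GPC3 per kilobase in control 1 and at 100 µM, and its 100 µM replicates differed by only 1.03-fold (0.972 to 1.09). It had 211 and 30 counts for the control pair, 6 and 2 under 10 µM, and 2798 and 1809 at 100 µM. In nuclear CPM this was 917 and 550.4, then 245 and 175, then 1355 and 1398. The 3 groups did not overlap, and the 100 µM libraries were the highest. Without overlap, 32% of tested nuclear genes were lower at 10 µM than in controls, and 48.3% were higher at 100 µM than in controls. In edgeR none of these differences passed, with a log2 fold change of -3.02 ± 1.24 at 10 µM against control (adjusted p = 0.162), 0.26 ± 1.10 at 100 µM against control (adjusted p = 0.921, and -0.19 with DESeq2 size factors) and 3.28 ± 1.25 at 100 against 10 µM (adjusted p = 0.130). At the control share the 10 µM libraries would have held 30.4 counts where 8 were counted, a pooled ratio of 3.80 (1.90 to 8.90), and of 2.47 without control 1. SERPINA1 kept 0.263 of its control share, more than most of the 208 abundant genes, 92.8% of which kept as little or less. It passed at 10 µM against control when control 2 was left out (-4.12, edgeR adjusted p = 0.00118), where 11.8% of all genes tested were called lower. From 10 to 100 µM it passed when control 1 (3.98, edgeR adjusted p = 0.00546) or control 2 (4.09, 0.000555) was, where 28.5% and 13.5% of all genes tested were called higher.

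TF, the iron carrier of plasma, and AHSG, an inhibitor of mineral deposition, differed strongly between the 2 controls. TF had 114 and 104 counts under DMSO, 1 and 0 under 10 µM, and 257 and 242 at 100 µM. In nuclear CPM this was 495.2 and 1908, then 40.8 and 0, then 124 and 187. Control 2 was 3.85-fold above control 1 (counting interval 2.93 to 5.07), and both controls lay above all 4 GenX libraries. Of tested nuclear genes, 32% lay below both controls in this way at 10 µM and 9.57% at 100 µM. In edgeR the log2 fold change against control was -6.43 ± 1.81 at 10 µM (adjusted p = 0.121) and -3.31 ± 1.39 at 100 µM (adjusted p = 0.253), and from 10 to 100 µM it was 3.12 ± 1.73 (adjusted p = 0.191), and none of these passed. Pooled over libraries, the control level was 27.5-fold above that at 10 µM, with a counting interval of 4.88 to 1091 from 1 count, and was 68.5-fold above it without control 1 and 17.8-fold without control 2. The pooled 100 µM level was 0.194 of the control level (0.165 to 0.229), and 0.0779 of it without control 1 or 0.300 without control 2. Without 10 µM replicate 1, TF has no count at that dose. DESeq2's Wald test on the same filtered genes called TF lower at both doses against control (adjusted p = 0.00748 and 0.00512), where that test called 12.1% and 5.75% of all genes lower. In edgeR fits that left out control 1 or control 2, the TF log2 fold change at 10 µM against control was -7.07 or -6.20. The medians of all genes tested were 0.0 and -1.68 there. From 10 to 100 µM the TF value was 3.80 or 3.93 in these fits, beside medians of 3.21 and 5.05 for all genes tested.

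AHSG had 14 and 112 counts in control cells, 0 and 0 under 10 µM, and 121 and 17 at 100 µM. In nuclear CPM this was 60.8 and 2055 for the control pair, and 58.6 and 13.1 at 100 µM. Control 2 was 33.8-fold above control 1 (19.3 to 63.8), and 100 µM replicate 1 was 4.46-fold above replicate 2 (2.67 to 7.91). Control 1 and 100 µM replicate 1 were close, so the distance between the groups rested on control 2. At the control share the pooled 10 µM libraries would have held 15.9 counts, which is 5.30-fold above a floor of 3 counts. With all counts as the base the control level was 10.2-fold above this floor. The lower limits of the exact counting intervals were weaker, at 4.25-fold and 8.14-fold. The fold above the floor rested on control 2: it was 24.6 without control 1, and without control 2 the control level lay below the floor. Without 10 µM replicate 1 this fold was 1.68. AHSG did not pass the filter on low counts. Without control 1 it entered the test, but the control group was then control 2 alone, the library in which AHSG was highest. That fit therefore supports nothing further about AHSG.

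ALB, the most abundant protein of plasma, was far below GPC3 per kilobase in every control and 100 µM library. It had 22 and 31 counts in control cells, 2 and 0 under 10 µM, and 176 and 232 at 100 µM. In nuclear CPM this was 95.6 and 569, then 81.6 and 0, then 85.2 and 179. Control 2 stood 5.95-fold above control 1 (3.34 to 10.8), and the 100 µM libraries overlapped the controls. The count at 10 µM set beside the control share was 2 against 6.68, a pooled ratio of 3.34 with an interval of 0.881 to 28.3, so a difference in nuclear CPM was not detectable at this depth. With all counts as the base the ratio was 6.41 (1.69 to 54.3). The nuclear ratio was 10.2 without control 1 and 1.72 without control 2, and without 10 µM replicate 1 ALB has no count at that dose. The log2 fold changes of -3.56 ± 1.93 at 10 µM, -1.63 ± 1.61 at 100 µM and 1.93 ± 1.88 at 100 against 10 µM did not pass in edgeR (adjusted p = 0.226, 0.601 and 0.430). Per kilobase of exon, ALB had 28.3 and 168 nuclear CPM under DMSO where GPC3 had 1210 and 1056, and 25.2 and 53.1 under 100 µM where GPC3 had 1373 and 1464.

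AFP, the fetal counterpart of albumin, and TTR, the carrier of thyroid hormone and retinol-binding protein, were counted almost only at 100 µM. AFP had 0 counts in the 4 other libraries and 78 and 18 at 100 µM, or 37.8 and 13.9 nuclear CPM. TTR had 0 and 0 counts for the control pair, 1 and 0 under 10 µM, and 80 and 80 at 100 µM, or 38.7 and 61.8 nuclear CPM. Against the level of 3 counts over the pooled controls, TTR was 4.52-fold and AFP 2.71-fold higher at 100 µM. The lower limits of the exact counting intervals against the pooled controls were 3.63-fold for TTR and 2.16-fold for AFP. Without control 1 the pooled 100 µM level of neither gene reached that of 3 counts in control 2. Without 100 µM replicate 1 AFP was 1.32-fold above the level of 3 counts over the pooled controls. AFP in 100 µM replicate 2 was close to the 13.0 nuclear CPM that control 1 could have missed. Both genes lay below the level of 3 counts in control 2 except for TTR in replicate 2. That TTR value lay below the exact upper limit of control 2, 67.7 nuclear CPM. At 10 µM the same 100 µM levels would have given 1.03 AFP and 1.71 TTR counts over both libraries, so 0 or 1 counts there allow no comparison. Neither gene passed the filter on low counts.

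The fibrinogen chains were at or near 0 in most libraries, and at 10 µM FGB and FGG were counted in different libraries. FGA, the alpha chain, had 0 counts in all 6 libraries, with exact upper limits of 1.79 and 2.85 nuclear CPM at 100 µM. FGB, the beta chain, had 0 and 0 counts under DMSO, 4 and 0 under 10 µM, and 7 and 9 at 100 µM. FGG, the gamma chain, had 1 and 0, then 0 and 8, then 87 and 0 counts. In each group FGG was thus counted in 1 library and at 0 in the other, and at 100 µM replicate 1 was at least 14.5-fold above replicate 2 by the lower counting limit. Such splits were seen in other genes, since 7.95% of the 5638 nuclear genes with at least 50 counts in 100 µM replicate 1 had 0 in replicate 2. FGG stood at 701 nuclear CPM in 10 µM replicate 2 (interval 303 to 1382) and FGB at 163 in replicate 1 (44.5 to 418), both from fewer than 10 counts in a single library. With FGB at 0 in both controls, its pooled level at 10 µM was 10.6-fold above the level of 3 control counts, from 10 µM replicate 1 alone. By the exact counting interval the pooled control level was at most 0.191 of that at 10 µM. Counts on genes without a control count were common there, at 45.6% and 38.5% of all nuclear counts in 10 µM replicates 1 and 2. None of the 3 chains passed the filter, and their values at 10 µM rest on 12 counts in all.

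Divided by exon length, so that genes can be compared, the order of the 10 levels was clear only at its top. At 100 µM GPC3 had 1419 ± 64.2 nuclear CPM per kilobase (SD, n = 2) and SERPINA1 281 ± 6.17, and neither overlapped the gene below it. ALB (39.2 ± 19.7), TTR (23.1 ± 7.51), TF (18.2 ± 5.16), AHSG (15.2 ± 13.7), AFP (7.93 ± 5.18), FGG (5.85 ± 8.28) and FGB (1.91 ± 0.931) followed, and each of these overlapped its neighbour. In the controls GPC3 (1133 ± 109) again stood above the rest on the same scale. AHSG (450 ± 599), SERPINA1 (150 ± 52.8), TF (140 ± 117) and ALB (98.4 ± 99.1) overlapped each other there.

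By counts, not corrected for length, the makeup of the 10 genes was nearly the same in both 100 µM libraries and differed between the controls. GPC3 took 68.1% of these counts (interval 67.2 to 68.9) in 100 µM replicate 1 and 68.1% (67.0 to 69.1) in replicate 2, and 67.6% (64.8 to 70.3) in control 1. In control 2 it took 36.0% (31.5 to 40.7), where AHSG took 25.9% and TF 24.0%. SERPINA1 took 18.9% and 6.93% in control cells, and 24.8% and 24.0% at 100 µM. At 10 µM GPC3 took 17.6% of 17 counts (3.80 to 43.4) and 23.1% of 13 (5.04 to 53.8). Both intervals include the 36.0% of control 2 and lie below the shares in control 1 and both 100 µM libraries. FGG and FGB took 61.5% and 23.5% of the counts in 10 µM replicate 2 and replicate 1, and at most 0.771% in the other libraries.

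**Figure D3:**
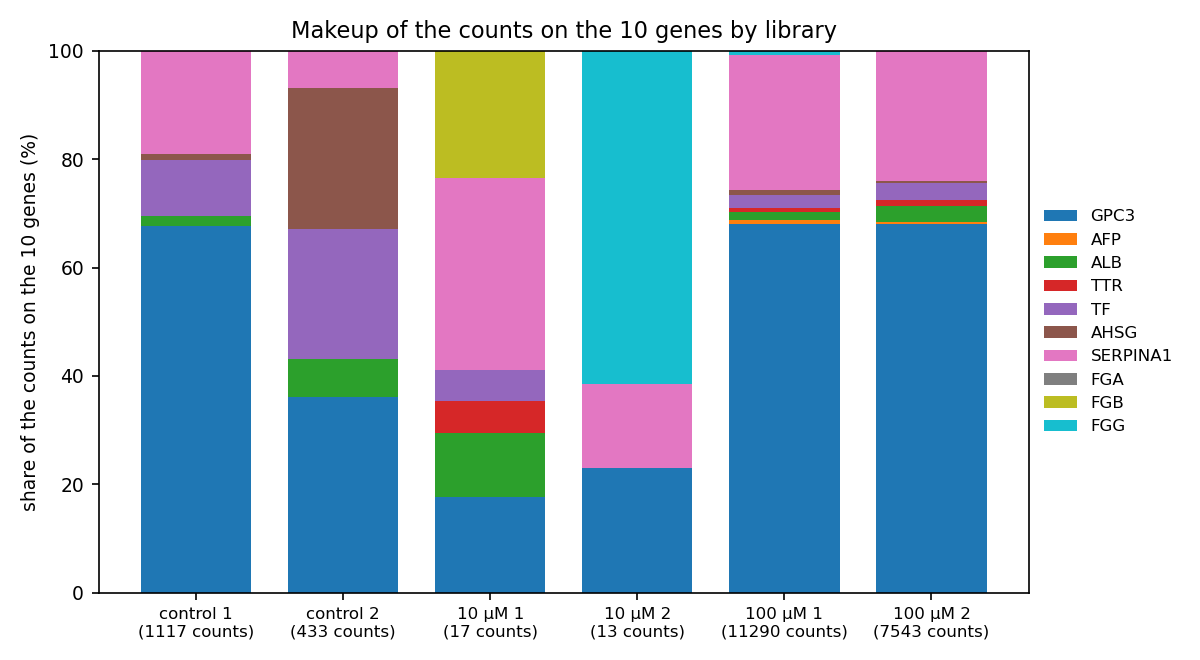
Share of the counts on the 10 genes that fell on each gene, as stacked bars for the 6 libraries, with the number of counts under each bar. GPC3 fills over 67% of the bar in control 1 and both 100 µM libraries and 36.0% in control 2, and the 10 µM bars rest on 17 and 13 counts.

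Only GPC3, ALB, TF and SERPINA1 had counts enough to be tested, and the other 6 genes did not pass the filter. For these 4 genes both 10 µM libraries lay below both controls, where 32% of the 3145 tested nuclear genes did the same and 11.1% the opposite, and both 100 µM libraries lay above both 10 µM libraries, where 63.8% did and 7.63% did the opposite. At 100 µM against control GPC3 and SERPINA1 lay above without overlap (48.3% of tested nuclear genes) and TF below (9.57%). Since a gene can pass the filter through the group in which it is high, these counts describe the 4 genes and support nothing further. The median log2 fold change of the 4 was -4.46 at 10 µM against control beside -3.18 for all genes tested, -0.95 at 100 µM beside 0.35, and 3.20 at 100 against 10 µM beside 3.52.

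**Figure D4:**
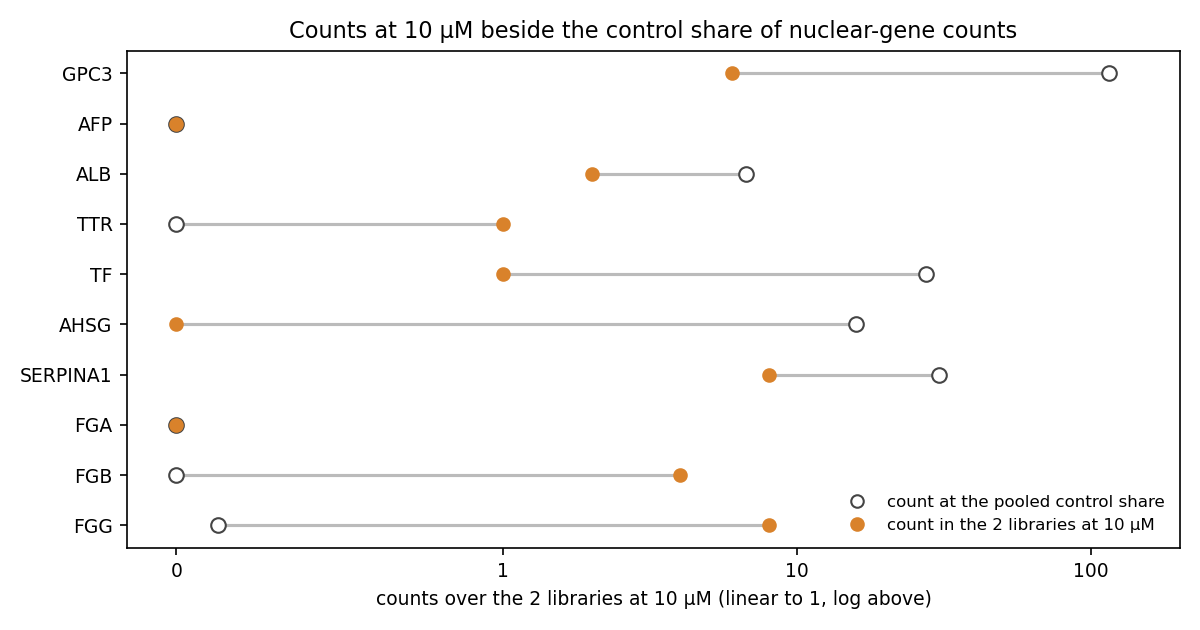
Counts of the 10 genes over both 10 µM libraries (orange) beside the count at the pooled control share of nuclear counts (open), on an axis that is linear to 1 and logarithmic above. GPC3, TF, AHSG, SERPINA1 and ALB were counted less often than at the control share, and FGB, FGG and TTR more often, from 4, 8 and 1 counts.

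The genes whose levels followed GPC3 most closely over the 6 libraries were TPT1 (Pearson r = 0.995), HSP90AB1 (0.991) and APLP2 (0.990), on log2 of the nuclear CPM plus 50. These correlations are descriptions over 6 libraries that share their depth pattern, and 188 of the 2332 genes ranked had r over 0.9. TPT1, which encodes a translationally controlled tumor protein, had 491 and 66 counts for the control pair, 1 and 1 under 10 µM, and 4093 and 2789 at 100 µM.

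Among 55 other hepatocyte plasma proteins, 44 had a count in some library and 11 were tested, and 0 passed in any comparison in edgeR, with 6 at an unadjusted p under 0.05 at 10 µM against control, 0 at 100 µM against control and 3 at 100 against 10 µM. DESeq2's Wald test called 4 of them lower at 10 µM against control, 0 at 100 µM against control and 2 higher from 10 to 100 µM, where it called 12.1% of all genes lower and 5.19% higher in the first and last of these. Their medians were -4.36, -0.26 and 3.59 log2 units beside -3.18, 0.35 and 3.52 for all genes, where the fitted value of a gene without a count at 10 µM is no bound. IGFBP1, which binds insulin-like growth factors, and F2, which encodes prothrombin, had the highest mean CPM. F2 had 165 and 2495 nuclear CPM under DMSO, 0 and 175 under 10 µM, and 418 and 533 at 100 µM, again with control 2 the highest. IGFBP1 had 1003 and 440, then 0 and 175, then 1792 and 1268. The whole list took 0.233% and 0.868% of nuclear counts in control cells, 0.0735% and 0.114% at 10 µM, and 0.520% and 0.519% at 100 µM. Of 12 acute phase proteins 5 had 0 counts in every library and 2 were tested, 0 of which passed in edgeR, with 2, 0 and 1 at an unadjusted p under 0.05 in the 3 comparisons. C3, the central complement protein, stands in both lists and was called by DESeq2 at 10 µM against control and from 10 to 100 µM. It had 109 and 21 counts for the control pair, 0 and 0 under 10 µM, and 890 and 847 at 100 µM, and ORM1, an acid glycoprotein, 5 and 37, 0 and 0, and 250 and 155.

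Among apolipoproteins, the protein part of lipoproteins, 5 of 10 were tested, with medians of -6.30, -0.51 and 6.32 log2 units in the 3 comparisons. APOA2 was lower at 10 µM than in controls (log2 fold change -6.30, edgeR adjusted p = 0.0111) and higher at 100 than at 10 µM (6.32, adjusted p = 0.00323), and 0 passed at 100 µM against control, where 0 had an unadjusted p under 0.05 and DESeq2 called 0. It had 4144 and 8330 nuclear CPM under DMSO, 163 and 175 under 10 µM, and 8861 and 8560 at 100 µM. APOE, the ligand of lipoprotein receptors, had 1347 and 4147, then 40.8 and 438, then 1016 and 1071, and did not pass in edgeR (adjusted p = 0.113 at 10 µM). DESeq2's Wald test called 3 apolipoproteins lower at 10 µM against control (APOA1, APOA2 and APOE) and 2 higher from 10 to 100 µM (APOA1 and APOA2). That test called 12.1% of all genes lower and 5.19% higher in these comparisons. Of 17 further oncofetal and carcinoma markers 8 were tested, and KRT19, an epithelial keratin, was lower at 10 µM (-8.00, adjusted p = 0.0414) and higher at 100 than at 10 µM (6.62, adjusted p = 0.0408). At 100 µM against control 0 of the 8 passed in edgeR, with 1 at an unadjusted p under 0.05. DESeq2 called 1 lower there, IGF2BP1, beside 5.75% of all genes. IGF2BP1, an RNA-binding protein of fetal tissues, had 66 and 48 counts in control cells, 0 and 0 under 10 µM, and 174 and 53 at 100 µM, and did not pass in edgeR (adjusted p = 0.131 at 10 µM). DESeq2 called 4 of the 8 lower at 10 µM against control (IGF2BP1, KRT19, MDK and SOX9), beside 12.1% of all genes. It called 2 higher from 10 to 100 µM (KRT19 and MDK), beside 5.19% of all genes. KRT19 had 407 and 315 counts under DMSO, 0 and 1 under 10 µM, and 3478 and 2728 under 100 µM, so its level at 10 µM rests on 1 count. Of all tested genes edgeR called 0.377% lower at 10 µM against control and 0.755% higher from 10 to 100 µM. With nuclear counts only, edgeR called 1 gene in all at 10 µM against control and 0 from 10 to 100 µM. Neither APOA2 nor KRT19 thus passed from 10 to 100 µM in that setting.

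The labelled cell type was checked against these markers. Liver genes such as GPC3, APOA2, APOE, SERPINA1 and TF were counted in both controls and both 100 µM libraries, while FGA was at 0 in all 6 libraries, and AFP and TTR in both controls. Of 21 markers of leukocytes, endothelium, stroma, red cells and bile duct, 14 had a count in some library. Their summed level was 0.0578% and 0.0404% of nuclear counts for the control pair, 0.0490% and 0.114% at 10 µM, and 0.0249% and 0.0330% at 100 µM. COL1A1, a collagen gene, and LYZ, which encodes lysozyme, had the highest mean CPM, with 50 and 6, 6 and 6, and 67 and 42 counts for COL1A1 and 74 and 8, 2 and 4, and 52 and 60 for LYZ. KRT7, a keratin of bile ducts named after its values were seen, had 4 and 1, 0 and 0, and 360 and 230 counts. The part of these genes in the results was not tested. In edgeR 0 of the 3 tested markers passed in any comparison, with 1 at an unadjusted p under 0.05 from 10 to 100 µM. DESeq2 called COL1A1 and LYZ lower at 100 µM against control, beside 5.75% of all genes. It called COL1A1 lower from 10 to 100 µM, beside 218 of all 3180 genes. At 0 in all 6 libraries were 7 markers, PTPRC, CD3E, CD68, MARCO, CDH5, HBA1 and CFTR. Other markers of the same cell types had counts, among them, also named after their values were seen, CD14 of monocytes (17 and 39 at 100 µM), the endothelial genes STAB2 (50 in 100 µM replicate 2), PECAM1 (2 in the same library) and VWF (4 in control 2).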

How the data were processed

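RNA of mitochondria isolated by kit was sequenced from stranded libraries depleted of ribosomal RNA, per the labels' protocols. The authors deposited raw read counts per gene, 1 table per library. FastQC, STAR, featureCounts, DESeq2 and GRCh38 are named without version per the submitters' processing notes. The annotation release and the strand setting are not given in the sources used here. Symbols came from a table that matched 56410 of 57500 identifiers, then from GENCODE release 29, and promoters from RefSeq (GRCh38.p14). 0 lines named no gene.

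Genes were tested with the robust quasi-likelihood method of edgeR 4.0.16 (R 4.3.3) after filterByExpr by group, which kept 3180 genes, and TMM scaling. A single model with 1 mean per group held all 6 libraries, tests were two-sided, and p-values were adjusted by Benjamini-Hochberg across the tested genes (threshold 0.05). The SE is the log2 fold change divided by the root of its F statistic. Shares and intervals used scipy 1.17.1 and pandas 2.3.3, and plots matplotlib 3.10.9, under Python 3.11.15. Alternatives were DESeq2 size factors, library sizes alone, nuclear counts only, DESeq2 1.42.0, no filter, a replicate block, and leaving out each library. DESeq2 without a filter, a protein-coding denominator and pooled ratios without each library were added after seeing the data. Scripts were tested on simulated data. The genes, lists and tests were chosen with earlier results of these data known. All 10 genes were named. Of each further list the text names the 2 genes with the highest mean CPM and those that passed, and as genes like GPC3 the 3 with the highest correlation. Library totals of 29350 to 2141282 counts set the precision. Some genes of the lists are not reported here.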

Additional observations from a re-analysis of the deposited data

How the results depend on the processing

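The count of the 10 genes called at 10 µM against control was 1 (GPC3), and was 0 with DESeq2 size factors, library sizes alone, nuclear counts only, no filter, and DESeq2's test on all genes with a count, 2 (GPC3 and TF) in DESeq2's test on the filtered genes, and 0 to 3 without a library. At 100 µM against control it was 0, then 1 (TF) in DESeq2's test on the filtered genes and 0 to 1 without a library. At 100 against 10 µM it was 1 (GPC3), then 0 with DESeq2 size factors, nuclear counts only, no filter and DESeq2's test on all genes, and 0 to 3 without a library. Over all genes, the 19 calls at 10 µM became 7 with library sizes alone, 1 with nuclear counts only, 554 in DESeq2's test, 7 without a filter, and 4 to 861 without a library. The 0 calls at 100 µM against control (573 genes at an unadjusted p under 0.05) became 4 with DESeq2 size factors, 244 in DESeq2's test, 11 in DESeq2's test on all genes, and 0 to 204 without a library. The 91 calls at 100 against 10 µM became 0 with nuclear counts only, 383 in DESeq2's test, 925 in DESeq2's test on all genes, 3 without a filter, and 16 to 1272 without a library. The highest counts came without control 1 or control 2, and the lowest without a GenX library. A fit without 1 library assumes that the lone sample left in its group varies like the other groups, and a fit without a filter tests more genes. For the other changes the cause was not tested.

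The replicate block gave 75, 22 and 136 calls in the 3 comparisons, and GPC3 was called in the same pair of comparisons. Deviations of same-numbered libraries from their group means correlated at 0.00033, 0.0032 and -0.022 over 3180 genes, so the numbers were not taken to pair the libraries.

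At 100 µM against control, GPC3 (-0.26) turned to 0.39 with library sizes alone and 0.38 with no filter, and ran from -0.38 to 0.78 without a library. SERPINA1 (0.26) turned to -0.19 with DESeq2 size factors, -0.20 in DESeq2's test and -0.088 in DESeq2's test on all genes, and ran from -0.024 to 1.68 without a library. None of these passed. The share of the 10 genes without GPC3 was 0.333% for control, 0.0724% for 10 µM and 0.180% for 100 µM. The share of all 10 genes, GPC3 included, was 0.0417% at 10 µM with all counts as the denominator. Without a library the share of all 10 in nuclear counts was 0.485 to 0.794%, 0.0694 to 0.114% and 0.547 to 0.583%. With protein-coding nuclear counts as the denominator the share of all 10 was 0.736%, 0.113% and 0.606%.

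Depth limited the 10 µM group most, where 1 count stood for 40.8 and 87.7 nuclear CPM.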

Other observations

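The machinery that carries secreted proteins into the endoplasmic reticulum was also measured. Of 30 genes of the signal recognition particle, the translocon, the signal peptidase and the oligosaccharyltransferase, 30 had a count in some library and 22 were tested. In edgeR's quasi-likelihood test 0 passed in any comparison, with 3 at an unadjusted p under 0.05 in each, and DESeq2's Wald test called 3, 3 and 2 of them. Their medians of -3.17, 0.73 and 3.42 log2 units stood beside -3.18, 0.35 and 3.52 for all genes. RPN2, a subunit of the oligosaccharyltransferase, had 521 and 532 nuclear CPM under DMSO, 81.6 and 175 under 10 µM, and 941 and 945 at 100 µM. STT3A, a catalytic subunit of the same enzyme, had 1321 and 514, then 40.8 and 263, then 180 and 74.2. Both 100 µM libraries lay below both controls (log2 fold change -3.56, edgeR adjusted p = 0.241), as for 9.57% of tested nuclear genes.

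Of 16 liver transcription factors 14 had a count in some library and 3 were tested, with 0 passing in any comparison and 0 at an unadjusted p under 0.05 in edgeR, and 0 called by DESeq2. ZBTB20, a repressor of AFP in the adult liver, had 165 and 73.4 nuclear CPM under DMSO, 81.6 and 175 under 10 µM, and 665 and 541 at 100 µM (log2 fold change 1.63 at 100 µM against control, edgeR adjusted p = 0.547). CEBPB, a factor of the acute phase response, had 117 and 0, then 0 and 87.7, then 351 and 284. Of 22 genes of mature hepatocyte metabolism 7 had 0 counts in every library, and 2 were tested with 0 passing in edgeR, 0 at an unadjusted p under 0.05 and 0 called by DESeq2. They were ASGR2 and ASGR1, the subunits of the asialoglycoprotein receptor, and ASGR2 had 213 and 128, then 81.6 and 0, then 339 and 374 nuclear CPM.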
